A study of Mus musculus with 18 samples.

Results

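The insulin signalling genes were 10 genes of the pathway that links the insulin receptor to its transcriptional targets in liver: Insr, Irs1, Irs2, Pik3r1, Akt1, Akt2, Foxo1, Foxo3, Grb14 and Ptpn1. They were taken by name, and every probe whose transcript accession maps to one of these symbols was used. All 10 were on the array, measured by 18 of its 39429 probes. The array named 21153 genes, and 19598 of them had a probe that passed the filter on dim probes, the 10 included. Total liver RNA came from 18 male C57BL/6 mice, 1 array per mouse. Mice began a diet with 10% fat (LFD) or 60% fat (HFD) at 6 weeks of age. The untreated groups were LFD (n = 4) and HFD (n = 4). LFD MTX50 (n = 5) and HFD MTX50 (n = 5) were given the antifolate methotrexate at 50 mg/kg into the peritoneum, in 5 weekly rounds that started after 10 weeks on diet, and livers were taken 1 week after the last dose. The labels name no engineered allele, and the sources used here do not say whether they were fasted before the livers were taken.

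Insulin binds a receptor tyrosine kinase on the hepatocyte, and the activated receptor phosphorylates the docking proteins IRS1 and IRS2. These recruit PI 3-kinase, whose lipid product brings AKT kinases to the membrane, and AKT in turn excludes FOXO transcription factors from the nucleus. In the fed liver this shuts off glucose production genes and favours glycogen and fat synthesis, while fasting does the opposite. The adaptor GRB14 and the phosphatase PTP1B, encoded by Ptpn1, act on the receptor as brakes. Much of the pathway is controlled by phosphorylation, which RNA levels do not report.

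A level here is the log2 of a probe's processed intensity minus the 75th percentile of its array, so that 0 is the brightness at that percentile, and levels of different probes are not compared with each other. A gene was read on its brightest probe, and a difference counted as called at an adjusted p below 0.05 in limma, with adjustment over all 35739 probes kept. Per array, 83.9 to 90.6% of probes exceeded background by the scanner software's test. Of the members' 18 probes, 17 did so on all 18 arrays, and the exception was a dim Ptpn1 probe, above background on 5. The 4 LFD arrays fill 1 slide, and no slide holds LFD arrays together with arrays of another group, so slide and group cannot be told apart in comparisons with LFD. One slide carried mice of both high-fat groups, numbers 3 and 4 of HFD beside numbers 1 and 2 of HFD MTX50. All 5 hepatocyte markers passed the filter, and levels were summed on the linear scale, as multiples of the 75th percentile. The sums were 495 to 583 in LFD, 544 to 630 in LFD MTX50, 435 to 503 in HFD and 391 to 525 in HFD MTX50. Cps1 was called lower with diet (log2 difference -1.24) and Apoa1 higher with the drug on LFD (0.74). Alb, Ttr and Tat were called in no comparison of diet or drug. The 4 macrophage markers summed to 38.5 to 54.0 in LFD and 24.6 to 33.1 in LFD MTX50, against 27.4 to 51.0 in HFD and 31.6 to 65.0 in HFD MTX50. Such a sum weights the brightest probes most, and these markers did not all move together. In LFD MTX50 against LFD, Cd68 (log2 difference -0.94) and Csf1r (-0.54) were called lower, while Adgre1 (-0.40) and Clec4f (0.33) were not called. Erythroid markers (2 of 3 passed) summed to 15.5 to 22.4 in LFD, 0.721 to 1.18 in LFD MTX50, 9.96 to 22.1 in HFD and 1.03 to 53.6 in HFD MTX50. The 4 neutrophil markers summed to 0.682 to 0.804 in LFD, 0.835 to 3.16 in LFD MTX50, 0.744 to 1.20 in HFD and 0.807 to 18.9 in HFD MTX50. The 4 adipocyte markers summed to 0.513 to 0.581 in LFD, below all mice of LFD MTX50 (0.825 to 1.19), HFD (0.859 to 2.31) and HFD MTX50 (0.721 to 1.16). Again the single markers differed. With diet Lep (log2 difference 2.30), Cidec (1.32) and Plin1 (0.64) were called higher and Adipoq was not (-0.04). With the drug on HFD Adipoq was called higher (0.88) and Cidec lower (-0.95), while Lep (-0.87) and Plin1 (-0.41) were not called. The part of these cell types in the results below was not tested, and in bulk liver fewer cells of a type and less RNA per cell cannot be told apart.

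Diet was compared first in untreated mice. In HFD livers Irs1 and Grb14 were lower than in LFD, by 1.66-fold and 1.69-fold, and Irs2 and Foxo3 were higher, by 1.29-fold and 1.34-fold. These 4 of 10 members were called, beside 28.3% of all genes (18% higher and 10.4% lower), so the share of members called lay near that of the array at large. The groups did not overlap for 6 of 10 members, beside 40.3% of all genes. Methotrexate on the high-fat diet was followed by 1 call, a 1.32-fold lower Irs2, beside 11% of all genes (4.83% higher and 6.13% lower). The groups did not overlap for 3 of 10 members there, beside 11.4% of all genes. Methotrexate on the low-fat diet gave 4 calls beside 28.1% of all genes: Foxo3 was 1.92-fold higher, and Irs1, Akt2 and Grb14 were 1.67-fold, 1.38-fold and 1.41-fold lower. Here 3 of 10 members did not overlap, beside 29.1% of all genes. None of the 10 members reached 2-fold together with the adjusted p in these 3 comparisons, in which 2.86%, 0.975% and 4.75% of all genes did. At an unadjusted p below 0.05 in limma 6, 4 and 7 members passed, beside 42.4%, 30.8% and 41.5% of all genes. The diet comparison shares its LFD mice with one drug comparison and its HFD mice with the other, so the comparisons are not independent of each other. Under a random slide block in limma, which lets arrays of 1 slide vary together, the members called fell to 0 for diet, 0 for the drug on HFD and 1, Foxo3, for the drug on LFD, and 1.95%, 9.48% and 1.73% of all genes were called.

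**Figure D1:**
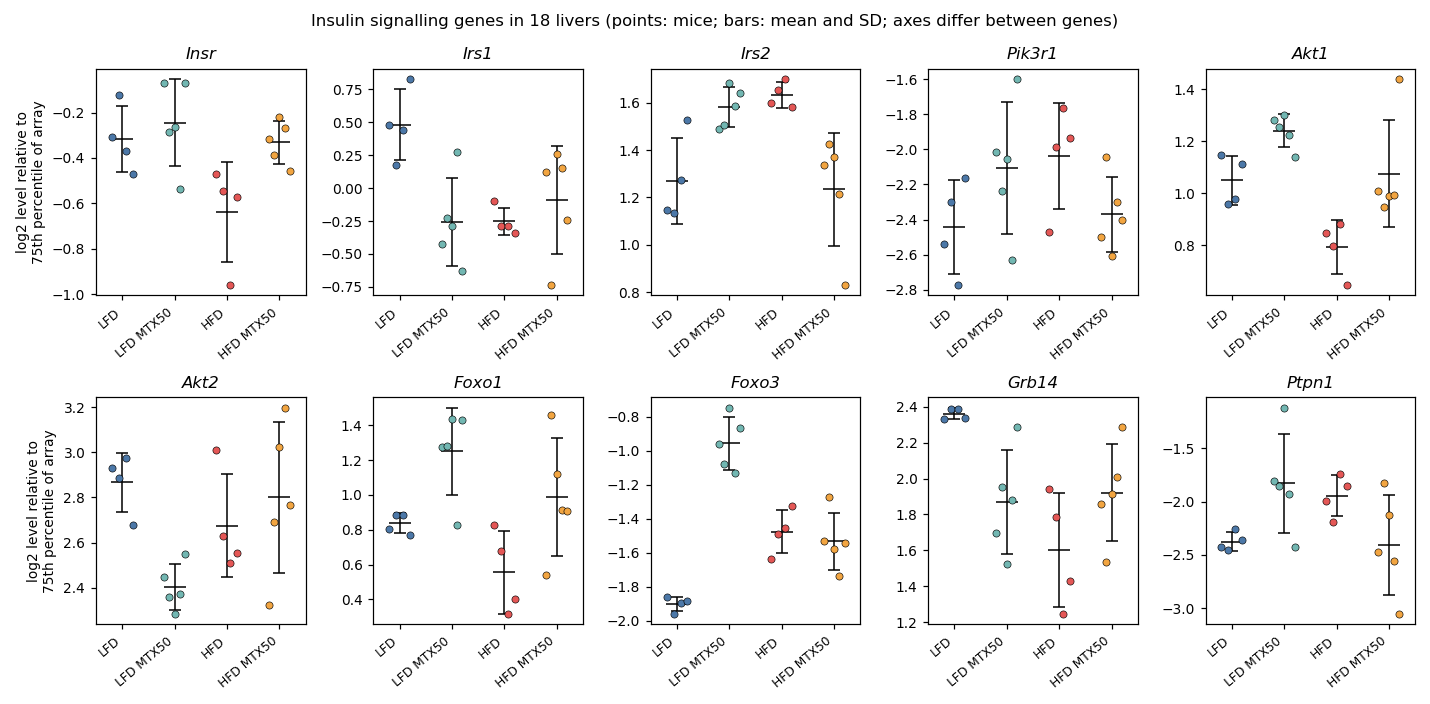
Level of each insulin signalling gene in every liver (y axis, log2 relative to the 75th percentile of the array, with a separate axis per gene) in the 4 groups (x axis), read on the gene's brightest probe; points are mice and bars give mean and SD. LFD MTX50 stands above the other 3 groups for Foxo3, and the 4 LFD mice lie above the HFD mice for Irs1 and Grb14.

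**Figure D2:**
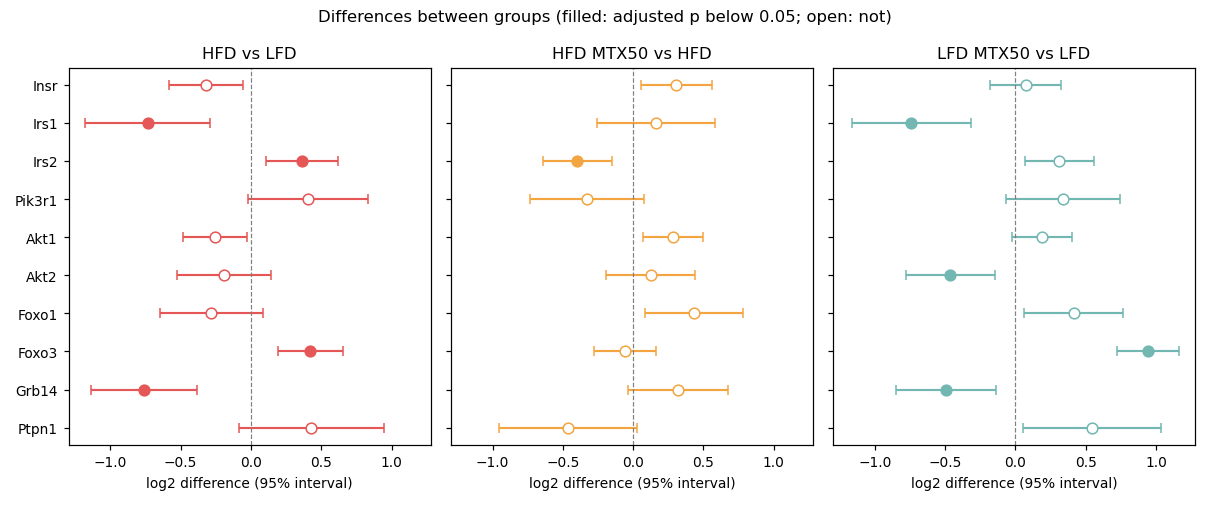
Log2 difference between groups for each gene (x axis, with its 95% confidence interval from limma) in the 3 comparisons; filled points have an adjusted p below 0.05. The interval of Foxo3 in LFD MTX50 against LFD runs from 0.72 to 1.16, and the called differences of Irs2 with diet and with the drug on HFD have opposite signs.

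Insr, the receptor itself, was called in no comparison on its brightest probe. Its level was -0.32 ± 0.15 in LFD (SD, n = 4), -0.64 ± 0.22 in HFD (n = 4) and -0.33 ± 0.09 in HFD MTX50 (n = 5). All 4 HFD mice lay below all 5 HFD MTX50 mice, with a log2 difference of 0.31 ± 0.12 (SE), an exact permutation p of 0.0159, two-sided, and an adjusted p of 0.0953 in limma. On the slide shared by 2 mice of each group that difference was 0.41. The other Insr probes gave 0.18 and 0.22 here, with overlap between the groups, and 0.04 and -0.05 on that slide. They also differed from the brightest probe on the low-fat diet. Where the brightest probe gave 0.07 for LFD MTX50 against LFD (95% interval -0.18 to 0.33), they gave 0.71 ± 0.11 (adjusted p = 0.000991) and 0.47 ± 0.14 (adjusted p = 0.0232), both called higher and without overlap between the groups. With the mean of the 3 probes Insr was called higher in LFD MTX50, by 0.42 (adjusted p = 0.00832), so its call there depends on the probes read. In HFD against LFD the brightest probe's difference of -0.32 became a call without HFD mouse 1 (-0.38, adjusted p = 0.0437), without LFD MTX50 mouse 4 (-0.32, adjusted p = 0.0485), and when arrays were scaled to the median of the probes above background on all arrays (-0.42, adjusted p = 0.0292). The other probes gave -0.03 and -0.07 with diet, neither called.

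Irs1 encodes a docking protein that the receptor phosphorylates. Its levels were 0.48, 0.18, 0.44 and 0.83 in the 4 LFD mice and -0.10, -0.29, -0.28 and -0.34 in the 4 HFD mice. The groups did not overlap. In the LFD MTX50 mice it was at -0.42, -0.23, -0.29, 0.27 and -0.63, and 1 of the 5, mouse 4, lay within the LFD range. The HFD MTX50 mice had 0.12, -0.73, 0.26, 0.15 and -0.24, a spread that covers the HFD mice on both sides. Irs1 fell with diet by 0.73 ± 0.21 on the log2 scale (SE, adjusted p = 0.0189, exact permutation p = 0.0286, the smallest that 4 against 4 mice allow), and with the drug on LFD by 0.74 ± 0.20 (adjusted p = 0.0145, exact permutation p = 0.0317). On HFD the drug difference was 0.16 (95% interval -0.26 to 0.59). The fall with diet was no longer called without LFD mouse 4 (-0.62, adjusted p = 0.0608), without HFD mouse 3 (-0.72, adjusted p = 0.0557), without HFD mouse 4 (-0.71, adjusted p = 0.0557) and with the slide block (adjusted p = 0.134), while the fall on LFD was called in all 18 fits that left out 1 array and lost with the slide block (adjusted p = 0.111). A dimmer second probe had the same signs and no call (-0.38 with diet and -0.36 with the drug on LFD), and on the mean of the probes neither fall was called (adjusted p = 0.0592 and 0.0523).

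Irs2, the docking protein whose transcription in liver is known to be repressed by insulin, ran a different course. Its levels were 1.15, 1.13, 1.27 and 1.53 in LFD and 1.60, 1.66, 1.70 and 1.58 in HFD. Every HFD mouse lay above every LFD mouse. The HFD MTX50 mice had 1.34, 1.42, 1.37, 1.21 and 0.83, all below the 4 HFD mice and overlapping the LFD mice. The rise with diet was 0.36 ± 0.12 (adjusted p = 0.0366, exact permutation p = 0.0286) and the fall with the drug on HFD was -0.40 ± 0.12 (adjusted p = 0.0385, exact permutation p = 0.0159, the smallest that 4 against 5 mice allow). LFD MTX50 mice, at 1.49, 1.51, 1.69, 1.58 and 1.64, were above 3 of the 4 LFD mice, and this difference of 0.31 ± 0.12 was not called (adjusted p = 0.0533), though it was without LFD mouse 4 (0.40, adjusted p = 0.0294) and without HFD MTX50 mouse 2 (adjusted p = 0.0488) or 5 (adjusted p = 0.0181). These calls sit close to the threshold. The rise with diet was lost on leaving out any of mice 1 to 3 of LFD or 2 to 4 of HFD (0.32 to 0.38, adjusted p of 0.0674 to 0.102). The fall on HFD was lost without any of LFD mouse 3, mice 2 to 4 of HFD or mice 4 and 5 of HFD MTX50 (-0.30 to -0.42, adjusted p of 0.0504 to 0.123), it was -0.26 on the shared slide, and it had an adjusted p of 0.0808 under a random slide block. In the authors' value table neither Irs2 difference was called (0.31, adjusted p = 0.0965, and -0.36, adjusted p = 0.0801).

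The promoters of Irs1 and Irs2 are shown because the RNAs of these paralogs were called in opposite directions with diet. The RefSeq table used here (GRCm38.p6) holds 14 windows for 9 of the members, each from 250 bases before to 50 after a start site. They were searched on both strands for CAAAACA, the core of the insulin response element that FOXO proteins bind, for GTAAACA, the forkhead consensus, and for the E-box CACGTG. The first of these, CAAAACA, was found in windows of Irs1 and Irs2 alone among the members, against 6.28% of all 32851 windows, CACGTG in the same ones, against 7.15%, and GTAAACA in 1 Akt1 window, against 3.65%. Only the 250 bases before the start are printed, on the gene's strand, with matches to these motifs in capitals. In Irs1 the E-box and the first TGTTTTG, the reverse complement of CAAAACA, share bases and are printed as 1 run of capitals, 115 to 105 bases before the start. The second TGTTTTG lies 32 to 26 bases before the start of Irs1, and that of Irs2 37 to 31 bases before its start. A match is a description of letters and says nothing on binding in these livers.
Irs1, chr1:82291440-82291689, minus strand: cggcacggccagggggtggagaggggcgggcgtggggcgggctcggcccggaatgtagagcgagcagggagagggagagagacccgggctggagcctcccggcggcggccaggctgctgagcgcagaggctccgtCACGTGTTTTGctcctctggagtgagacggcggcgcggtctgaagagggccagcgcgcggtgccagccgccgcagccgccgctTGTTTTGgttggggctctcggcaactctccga
Irs2, chr8:11008930-11009179, minus strand: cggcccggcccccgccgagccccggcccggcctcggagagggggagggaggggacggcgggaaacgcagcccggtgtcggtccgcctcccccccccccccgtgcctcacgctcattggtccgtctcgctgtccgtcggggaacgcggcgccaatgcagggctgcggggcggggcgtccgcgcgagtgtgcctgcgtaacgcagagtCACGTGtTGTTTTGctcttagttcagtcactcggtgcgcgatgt

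Pik3r1 encodes the regulatory subunit that docks PI 3-kinase on IRS proteins. It had 1 probe and no call: its levels ranged from -2.77 to -2.17 in LFD, -2.63 to -1.60 in LFD MTX50, -2.47 to -1.77 in HFD and -2.60 to -2.04 in HFD MTX50. The ranges overlapped in every comparison. The differences were 0.41 with diet (95% interval -0.02 to 0.83), -0.33 with the drug on HFD (-0.74 to 0.07) and 0.34 with the drug on LFD (-0.07 to 0.74), so that shifts of up to 0.83 in size lie inside these intervals.

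Of the AKT kinases, Akt2 is the form known to carry most of the insulin signal in hepatocytes. Its brightest probe read 2.93, 2.89, 2.97 and 2.68 in LFD, and 2.45, 2.36, 2.28, 2.37 and 2.55 in LFD MTX50. All 5 treated mice lay below all 4 untreated ones. The fall of 0.46 ± 0.15 was called (adjusted p = 0.0301, exact permutation p = 0.0159), but not without any of LFD mice 1, 2 or 3 or LFD MTX50 mice 2 or 3 (-0.43 to -0.46, adjusted p of 0.0535 to 0.0775), nor with quantile normalization (-0.36, adjusted p = 0.0608) or the slide block (-0.45, adjusted p = 0.162). HFD mice had 3.01, 2.63, 2.51 and 2.55, and HFD MTX50 mice 2.32, 2.69, 3.03, 3.20 and 2.77, a range that holds all HFD values. A second Akt2 probe was called lower in LFD MTX50 (-0.36, adjusted p = 0.0399) and also with diet (-0.39, adjusted p = 0.0356), where the brightest probe gave -0.19. The third probe moved the other way: it was called higher with diet (0.46, adjusted p = 0.0112) and lower with the drug on HFD (-0.37, adjusted p = 0.0405), and gave 0.20 with the drug on LFD. The mean of the 3 Akt2 probes was called in none of the 3 comparisons.

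Akt1 encodes the more widely used form and had 1 probe. Its levels were 0.96 to 1.15 in LFD, 0.65 to 0.88 in HFD, 0.95 to 1.44 in HFD MTX50 and 1.14 to 1.30 in LFD MTX50. HFD mice lay below all others. The difference was -0.26 ± 0.11 with diet (adjusted p = 0.0792, exact permutation p = 0.0286), 0.28 ± 0.10 with the drug on HFD (adjusted p = 0.076, exact permutation p = 0.0159) and 0.19 ± 0.10 with the drug on LFD (adjusted p = 0.156), none of them called. The level of HFD MTX50 mouse 5, 1.44, stands apart from its group. Without this mouse the drug difference on HFD shrank to 0.19, not called, while the diet difference was called (-0.26, adjusted p = 0.0242). The diet difference was also called with median scaling (-0.35, adjusted p = 0.0301) and when the 2 groups were fitted alone in limma (adjusted p = 0.0457).

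Foxo3, one of the FOXO factors that AKT inactivates, had the smallest F-test p over the 4 groups among the 10 (7.42e-07, unadjusted). LFD mice were at -1.86, -1.96, -1.89 and -1.88, and LFD MTX50 mice at -0.96, -1.08, -0.75, -1.13 and -0.87. No LFD MTX50 mouse came near an LFD mouse, and the spread inside LFD was 0.04 (SD). HFD mice had -1.64, -1.49, -1.45 and -1.33, and HFD MTX50 mice -1.53, -1.27, -1.58, -1.74 and -1.54. In order, LFD MTX50 was highest (-0.96 ± 0.16, SD), HFD (-1.48 ± 0.13) and HFD MTX50 (-1.53 ± 0.17) followed and overlapped, and LFD (-1.90 ± 0.04) was lowest. The rise with the drug on LFD was 0.94 ± 0.10 (SE, 1.92-fold, adjusted p = 0.00014, exact permutation p = 0.0159), and the rise with diet 0.42 ± 0.11 (adjusted p = 0.0123, exact permutation p = 0.0286). On HFD the drug difference was -0.06 (95% interval -0.28 to 0.16). Both rises were called in all 18 fits that left out 1 array, with adjusted p of 6.51e-05 to 0.00101 and 0.0078 to 0.048, and with the slide block the rise on LFD stayed called while that with diet did not (adjusted p = 0.093).

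Foxo1, the family member best known for driving glucose production genes in liver, was not called on its brightest probe. Levels were 0.77 to 0.89 in LFD and 0.32 to 0.83 in HFD, with 0.54 to 1.46 in HFD MTX50. LFD MTX50 mice had 1.28, 1.28, 1.44 and 1.43, apart from mouse 4 at 0.83, which lay inside the LFD range. The difference was 0.41 ± 0.17 with the drug on LFD (adjusted p = 0.0679) and 0.43 ± 0.17 with the drug on HFD (adjusted p = 0.0907). Without LFD MTX50 mouse 4 the first became a call at 0.52 (adjusted p = 0.0239), without HFD MTX50 mouse 1 both did (0.41, adjusted p = 0.0426, and 0.54, adjusted p = 0.0326), and without HFD MTX50 mouse 2 the first did (0.41, adjusted p = 0.042). A second Foxo1 probe was called higher in LFD MTX50, at 0.47 ± 0.17 (adjusted p = 0.0415), and so was the mean of both (0.44, adjusted p = 0.0479).

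Grb14 encodes an adaptor that binds the activated receptor and blocks its kinase. The 4 LFD mice were tightly grouped at 2.33, 2.39, 2.39 and 2.34, and the 4 HFD mice were at 1.94, 1.79, 1.25 and 1.43. LFD MTX50 mice had 1.70, 1.95, 1.52, 1.88 and 2.29. All 14 mice of the other groups lay below every LFD mouse, since the HFD MTX50 mice, at 1.86, 1.54, 1.91, 2.01 and 2.29, did too. The fall with diet was -0.76 ± 0.18 (adjusted p = 0.00853, exact permutation p = 0.0286) and was called in all 18 fits that left out 1 array. The fall with the drug on LFD was -0.49 ± 0.17 (adjusted p = 0.0389, exact permutation p = 0.0159), and it was lost without any of the 4 LFD mice or any of LFD MTX50 mice 1 to 4 (-0.41 to -0.51, adjusted p of 0.0514 to 0.0983). With the slide block the adjusted p was 0.0632 for diet and 0.205 for the drug on LFD, and quantile normalization gave 0.0902 for the latter. On HFD the drug difference was 0.32 ± 0.17 (adjusted p = 0.207).

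Ptpn1 encodes the phosphatase that removes phosphate from the receptor. On its brightest probe LFD mice were at -2.42, -2.46, -2.26 and -2.36, and HFD mice at -1.99, -2.19, -1.75 and -1.85, without overlap. Treated mice were scattered, at -1.81, -1.85, -1.12, -1.93 and -2.42 in LFD MTX50 and -2.47, -1.82, -2.12, -2.56 and -3.05 in HFD MTX50. The differences of 0.43 with diet, -0.46 with the drug on HFD and 0.55 with the drug on LFD had SEs of 0.23 to 0.24 and no call (adjusted p = 0.187, 0.185 and 0.0823). Without LFD MTX50 mouse 5 the last was called (0.70, adjusted p = 0.0322), as it was with a replicate block (0.70, adjusted p = 0.0112). It was also called on the mean of the probes (0.54, adjusted p = 0.0183), which includes the dim probe 3 described below. The diet difference was called when the 2 groups were fitted alone in limma (adjusted p = 0.0178). A second Ptpn1 probe gave -0.18, 0.28 and 0.23, so that its signs opposed those of the brightest probe in the first 2 comparisons. The dim probe 3 was called higher in LFD MTX50 (adjusted p = 0.0484), but it was well above background on 0 of 4 LFD arrays and on 3 of 5 LFD MTX50 arrays. Set against the lowest signal above background of each LFD array, the mean of all 5 LFD MTX50 arrays was 1.27-fold higher. This is not a strict lower bound, since that mean includes 2 arrays on which the probe was itself not well above background.

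**Figure D3:**
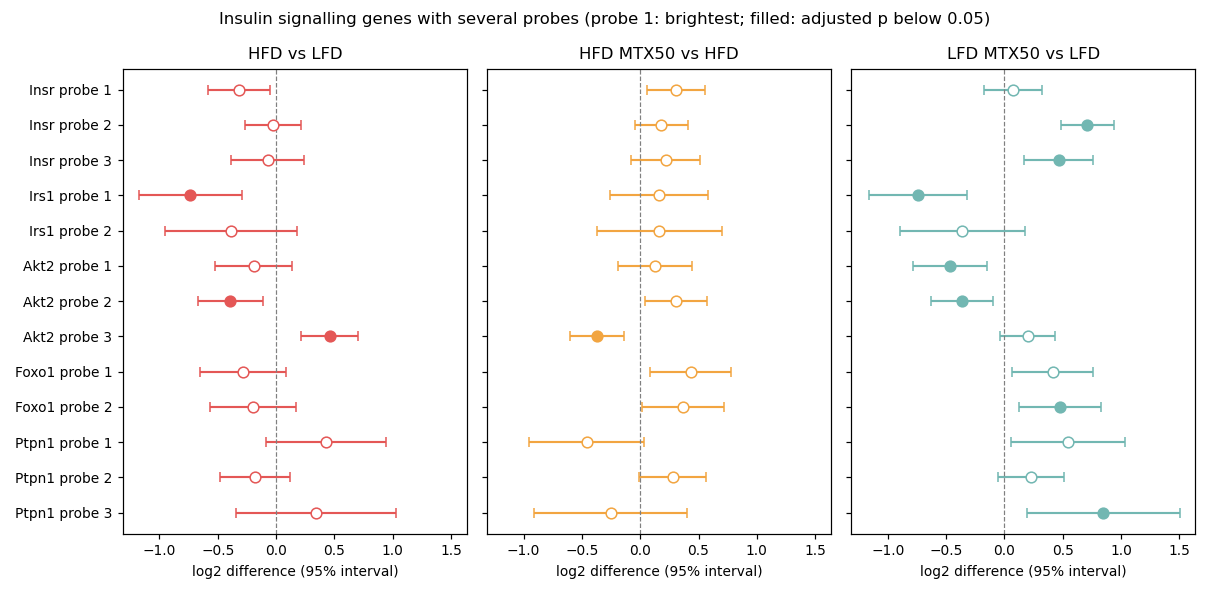
Log2 difference between groups (x axis, with 95% confidence interval) for every probe of the 5 genes with several probes, probe 1 being the brightest; filled points have an adjusted p below 0.05. Probe 3 of Akt2 lies on the other side of 0 from probes 1 and 2 in each comparison, and Insr probes 2 and 3 are called in LFD MTX50 against LFD where probe 1 is not.

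Over all 18 probes, 3 were called higher and 3 lower with diet, 0 and 2 with the drug on HFD, and 5 and 4 with the drug on LFD. The share of all kept probes called is not given here, so these counts do not set the members apart from the array. Read on the brightest probe, 28.3%, 11% and 28.1% of all genes were called. Several of the 18 probes belong to the same gene, as for Insr and Akt2, so their calls are not independent. Those higher with the drug on LFD include the dim Ptpn1 probe, well above background on 0 of 4 LFD arrays. The 5 genes with several probes had the same sign on all of them for 3, 3 and 4 genes in these comparisons. Which transcripts each probe reads was not examined, since probe sequences were not used here.

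Whether methotrexate moved a gene differently on the 2 diets was tested as the drug difference on HFD minus that on LFD. Of the 10 members 6 were called, beside 26.8% of all genes (8.66% higher and 18.1% lower), and 7 had an unadjusted p below 0.05 in limma, as 40.6% of all genes did. The value was positive for Irs1 (0.90 ± 0.28, adjusted p = 0.028), Grb14 (0.81 ± 0.24, adjusted p = 0.0219) and Akt2 (0.59 ± 0.21, adjusted p = 0.0472), the genes called lower with the drug on LFD. On the mean of its probes Irs1 was not called (0.71, adjusted p = 0.0749). The value was negative for Foxo3 (-0.9999 ± 0.15, adjusted p = 0.00361), Irs2 (-0.71 ± 0.16, adjusted p = 0.00869) and Ptpn1 (-1.01 ± 0.33, adjusted p = 0.0325). Only Ptpn1 also passed 2-fold, as 7.94% of all genes did. For Irs2 the drug went with a called fall on HFD and a value above 0 on LFD, whereas for Foxo3, Irs1 and Grb14 the drug difference on HFD was itself not called. Foxo3 and Irs2 were called in all 18 fits that left out 1 array, and the count of 6 fell to 2 without HFD mouse 3 or HFD mouse 4, and to 3 without HFD MTX50 mouse 4. Single arrays that ended the call were LFD mouse 4, HFD mice 3 and 4 and HFD MTX50 mouse 4 for Irs1 (adjusted p up to 0.0585), HFD mice 3 and 4 for Grb14 (up to 0.0564), and for Ptpn1 mice 1 and 2 of LFD, 3 of LFD MTX50, 3 and 4 of HFD, and 4 and 5 of HFD MTX50 (up to 0.0728). Pik3r1 (-0.67, adjusted p = 0.0735) became a call when HFD mouse 1, mouse 4 of LFD MTX50 or mouse 2 of HFD MTX50 was left out (-0.75 to -0.81, adjusted p of 0.0269 to 0.0467). Under a random slide block only Foxo3 was called, beside 6.37% of all genes. The difference for Akt2 was lost without any of 13 single arrays (0.49 to 0.60, adjusted p up to 0.103). It was also called on a second Akt2 probe (0.67, adjusted p = 0.0143) and opposed on the dimmest (-0.57, adjusted p = 0.0159). On the mean of its probes Akt2 was not called (0.23, adjusted p = 0.21). The difference for Ptpn1 was 0.05 on its second probe. Insr was not called on its brightest probe (0.23, adjusted p = 0.308), while 1 of its other probes was called lower (-0.53, adjusted p = 0.0196).

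The rest of the pathway was described from 63 further genes, 62 of them measured (Ceacam1 was not analysed here), chosen with results of these data known. With diet 3 were called higher and 13 lower, and their median log2 difference was -0.25 beside 0.08 over all genes. Methotrexate on HFD gave 11 higher and 2 lower (median 0.21 beside -0.04), and methotrexate on LFD gave 7 higher and 9 lower (median 0.04 beside 0.10). These are 16, 13 and 16 calls of 62, beside the 28.3%, 11% and 28.1% of all genes given above.

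**Figure D4:**
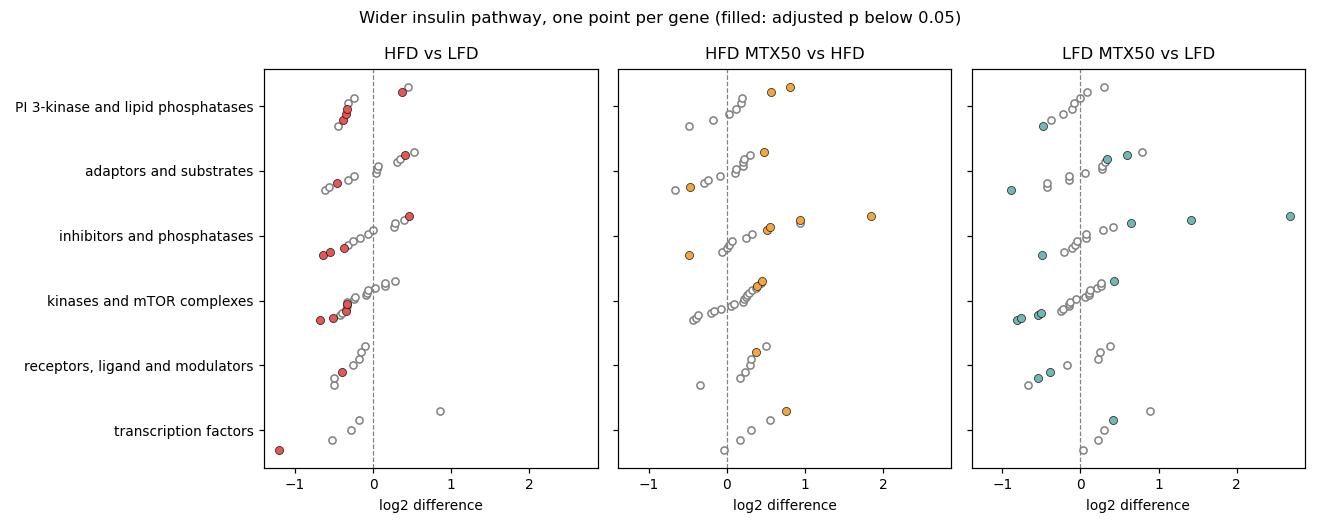
Log2 difference (x axis) of each of the 62 further pathway genes, 1 point per gene, in rows by role and in 3 panels by comparison; filled points have an adjusted p below 0.05. Called points of HFD against LFD lie mostly left of 0 (13 of 16), those of HFD MTX50 against HFD mostly right (11 of 13), and Socs2 and Socs3 are the points farthest right in LFD MTX50 against LFD.

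By role, with 10.4% of all genes lower and 18% higher with diet, 3 of 8 PI 3-kinase subunits and lipid phosphatases were lower and 1 higher, 4 of 18 kinases and mTOR complex genes lower and 0 higher, and 3 of 12 inhibitors and phosphatases lower and 1 higher. Among 7 receptors and modulators 1 was lower, among 12 adaptors 1 was lower and 1 higher, and among 5 transcription factors 1 was lower. The largest called falls were those of the coactivator Ppargc1a (-1.20 ± 0.25, adjusted p = 0.00528), the mTORC2 subunit Mapkap1 (-0.67 ± 0.22), the phosphatase Ptpn2 (-0.64 ± 0.13), the AKT phosphatase Phlpp2 (-0.56 ± 0.11), the mTORC1 activator Rheb (-0.51 ± 0.16) and the adaptor Shc1 (-0.47 ± 0.16). Prkce, a kinase C known to inhibit the receptor in fatty liver, rose (0.46 ± 0.15), as did the docking protein gene Irs3 (0.41 ± 0.14). In HFD MTX50 against HFD the values of Ppargc1a (0.76 ± 0.24), Phlpp2 (0.56 ± 0.11) and Ptpn2 (0.52 ± 0.13) were called higher and that of Prkce lower (-0.49 ± 0.14). Socs3 and Socs2, cytokine-induced suppressors of receptor signalling, were higher too, at 1.84 ± 0.34 and 0.94 ± 0.29, with Pik3cd, a PI 3-kinase subunit of leukocytes (0.80 ± 0.25), and the lipid phosphatase gene Inppl1 (0.57 ± 0.18). The mean of the Phlpp2 probes gave 0.10 with diet and 0.12 with the drug on HFD, neither called, so both calls rest on the probe read. Called in all 18 fits that left out 1 array were Ppargc1a, Ptpn2 and Phlpp2 with diet, and Socs3 and Phlpp2 with the drug on HFD. Other calls were lost in some of these fits. With the drug on HFD, Socs2, Ppargc1a and Inppl1 were called in 4 of the 18 fits each, Pik3cd in 7, Prkce in 9 and Ptpn2 in 16. With diet, Rheb was called in 13, and Mapkap1, Shc1, Prkce and Irs3 in 12 each.

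On the low-fat diet Socs2 had the largest difference of the pathway genes. It was at -1.10, -0.83, -1.38 and -1.67 in LFD and at 1.43, 1.18, 1.53, 1.47 and 1.56 in LFD MTX50, a rise of 2.68 ± 0.29 (adjusted p = 0.00014). The groups were far apart. Socs3 rose by 1.42 ± 0.34 (adjusted p = 0.00886), from between -2.23 and -0.56 in LFD to between -0.44 and 0.31. The pseudokinase gene Trib1 (0.64 ± 0.17) and the adaptor gene Sh2b2 (0.59 ± 0.12) also rose. The kinase gene Prkcz (-0.81 ± 0.21), Mapkap1 (-0.76 ± 0.21) and the receptor phosphatase gene Ptprf (-0.55 ± 0.18) fell. Ptprf was lost in 7 of the 18 fits that left out 1 array (adjusted p up to 0.0859). Socs2, Socs3, Trib1, Sh2b2, Prkcz and Mapkap1 were called in all 18. Under a random slide block 0, 9 and 1 of the 62 genes were called in the 3 comparisons, Socs2 being the 1 in LFD MTX50. Leaving out LFD mouse 2, HFD mouse 3 or HFD mouse 4 lowered the diet count from 16 to 3, LFD mouse 4 to 5, LFD mouse 3 to 7 and LFD mouse 1 to 9. The count of 13 with the drug on HFD fell to 2 without HFD mouse 3, 3 without HFD mouse 4, 4 without HFD mouse 2, 7 without LFD MTX50 mouse 2, and 8 without LFD mouse 3, mouse 1 of LFD MTX50 or mouse 5 of HFD MTX50.

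The transcriptional end of the pathway was read on 12 genes that FOXO factors activate and insulin represses, 2 of which (Ppargc1a and Trib1) are also in the wider list, and on 10 genes that insulin induces. Of the repressed genes 0 were higher and 3 lower with diet, 2 and 1 with the drug on HFD, and 3 and 3 with the drug on LFD. These 3, 3 and 6 calls of 12 stand beside 28.3%, 11% and 28.1% of all genes, so the share with diet was near that of the array. The 3 lower with diet were Ppargc1a, the cell cycle inhibitor gene Cdkn1b (-0.63 ± 0.14) and Mttp, which loads lipid onto lipoproteins (-0.55 ± 0.13). With the drug on HFD Cdkn1b (0.76 ± 0.13) and Ppargc1a were higher.

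Igfbp1, which encodes an IGF-binding protein and is a classical insulin-repressed gene, was at 1.56, 0.33, 1.46 and 2.51 in LFD and 2.82, 3.80, 4.93, 3.93 and 5.71 in LFD MTX50. The groups did not overlap, and the rise was 2.77 ± 0.82 (adjusted p = 0.0212). In HFD it was at 1.21, 1.51, 0.81 and 1.16, and in HFD MTX50 at 4.97, 4.09, 1.97, -0.26 and 1.58. The HFD MTX50 mice ran from below to far above the HFD mice, and this difference of 1.30 ± 0.82 was not called (adjusted p = 0.288). The 250 bases before the RefSeq start of Igfbp1 hold 1 match to CAAAACA, 108 to 102 bases before the start, shown in capitals because this gene is the usual readout of FOXO activity in liver.
Igfbp1, chr11:7197537-7197786, plus strand: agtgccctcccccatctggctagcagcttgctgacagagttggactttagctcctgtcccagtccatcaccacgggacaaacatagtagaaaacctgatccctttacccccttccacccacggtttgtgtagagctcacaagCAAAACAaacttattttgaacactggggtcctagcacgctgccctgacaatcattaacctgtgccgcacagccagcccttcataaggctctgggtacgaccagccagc

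Pck1 and G6pc, both enzymes of glucose production, did not move together. Pck1 was at 4.58, 4.34, 4.57 and 4.55 in LFD and 5.87, 5.34, 6.41, 5.30 and 6.21 in LFD MTX50, a rise of 1.31 ± 0.28 (adjusted p = 0.00528) without overlap. G6pc was at 3.87, 3.42, 4.14 and 4.32 in LFD and 1.92, 3.02, 2.69, 3.80 and 2.22 in LFD MTX50, a fall of 1.21 ± 0.34 (adjusted p = 0.0176) in which mouse 4 stayed in the LFD range. On HFD the drug difference was 0.20 for Pck1 (adjusted p = 0.661) and -1.14 ± 0.34 for G6pc (adjusted p = 0.0412), from 2.81, 2.77, 3.63 and 2.63 in HFD to 2.15, 1.37, 1.75, 1.33 and 2.47 in HFD MTX50, again without overlap. Pdk4, which blocks glucose oxidation, fell in LFD MTX50 by 1.28 ± 0.44 (adjusted p = 0.0387). The test of the difference between the drug effects on the 2 diets was passed by Pck1 (-1.12 ± 0.40, adjusted p = 0.0477) and not by G6pc (0.06, adjusted p = 0.935) or Igfbp1 (-1.48, adjusted p = 0.349).

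Of the 10 insulin-induced genes 3 were called with diet, near the 28.3% of all genes, and all 3 were lower: Acaca, which commits acetyl-CoA to fat synthesis (-1.29 ± 0.37, adjusted p = 0.0194), the secreted lipase regulator gene Angptl8 (-1.22 ± 0.41, adjusted p = 0.036) and the lipid droplet protein gene Pnpla3 (-3.18 ± 0.93, adjusted p = 0.0203), whose probe was above background on all 4 LFD arrays and 3 of 4 HFD arrays. With the drug on HFD 1 was lower, the glycolytic gene Pklr (-0.95 ± 0.27, adjusted p = 0.0341), and with the drug on LFD 1 was higher, the immediate early gene Egr1 (1.68 ± 0.61, adjusted p = 0.0478). Egr1 went against most of this list, in which 2 of 10 values were above 0 in each of the 3 comparisons. The median log2 differences of the list were -0.53, -0.56 and -0.62, beside 0.08, -0.04 and 0.10 over all genes. Under a random slide block Igfbp1, Pck1 and G6pc were not called on LFD (adjusted p = 0.108, 0.0781 and 0.134), nor G6pc on HFD (adjusted p = 0.0575), and Pdk4 (adjusted p = 0.181) and Egr1 (adjusted p = 0.232) on LFD were lost too. The block also ended the calls with diet of Ppargc1a, Cdkn1b, Mttp, Acaca, Angptl8 and Pnpla3 (adjusted p = 0.0512, 0.0588, 0.0811, 0.141, 0.176 and 0.136). Pklr, Cdkn1b and Ppargc1a were still called on HFD (adjusted p = 0.0296, 0.00699 and 0.0377). Igfbp1 was lost on LFD without LFD mouse 2 (adjusted p = 0.0702), Acaca with diet without HFD mouse 4 (adjusted p = 0.0576) and Pnpla3 with diet without LFD mouse 3 or HFD mouse 4 (adjusted p of 0.052 to 0.0726). Of the 18 fits that left out 1 array, G6pc on HFD was called in 9 and Egr1 in 4, while Angptl8 with diet was lost in 6 (adjusted p up to 0.104), Pdk4 on LFD in 7 (up to 0.114) and Pklr on HFD in 5 (up to 0.13).

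**Figure D5:**
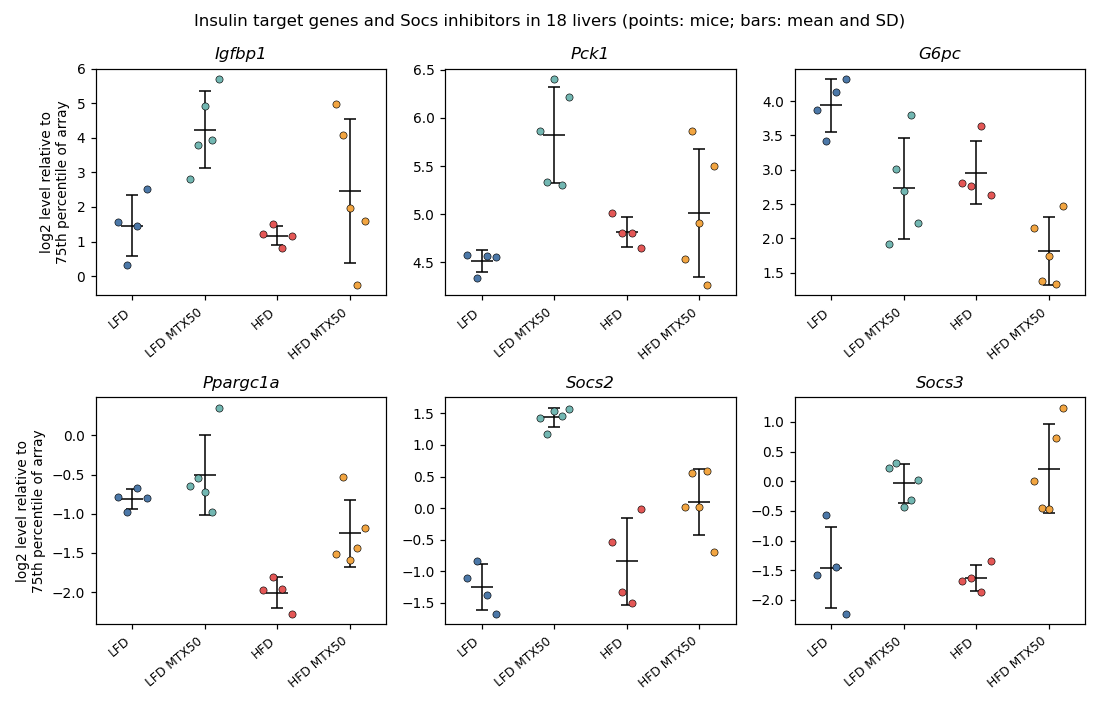
Levels of 4 insulin target genes and of Socs2 and Socs3 in every liver (y axis, log2 relative to the 75th percentile of the array, separate axis per gene) in the 4 groups; points are mice and bars give mean and SD. Igfbp1, Pck1 and Socs2 are higher in all 5 LFD MTX50 mice than in the 4 LFD mice, the mean of G6pc is lowest in HFD MTX50, and Ppargc1a is lower in the 4 HFD mice (-2.28 to -1.81) than in the 4 LFD mice (-0.98 to -0.67).

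For the 4 members with the smallest F-test p over the 4 groups (Foxo3, Akt1, Irs2 and Grb14), the genes of most similar pattern were found by Pearson correlation over the 18 arrays, among 17527 genes above background on all arrays. As a description, Foxo3 was closest to Magea6 (r = 0.95), Lrrc73 (0.95) and Pcsk2 (0.94), and Grb14 to Wbp4 (0.97), Prpf18 (0.94) and Bivm (0.93). Akt1 was closest to Rpgrip1, Rnf166 and Fgg (0.91, 0.91 and 0.90), and Irs2 to Tmbim7, Eqtn and Wfdc3 (0.92, 0.91 and 0.91). The arrays share slides and groups, so these values hold the group differences and the slides together.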

How the data were processed

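Liver RNA of 18 mice was hybridised to 1-colour Agilent mouse arrays, on slides with room for 4. Not every slide held 4 of these arrays. LFD MTX50 mouse 5 was the only one of the 18 on its slide, and HFD mice 1 and 2 shared another. As deposited, each array file holds the intensity of every spot from Agilent Feature Extraction 10.7.3.1, background-subtracted by that software and not yet normalized between arrays. The authors also deposited a table of their processed values, used only as an alternative.

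The processed intensity was averaged over spots of a probe without control spots and outlier flags, divided by the 75th percentile of its array and put on the log2 scale. Of 43020 non-control spots on 39429 probes, 35739 probes well above background on at least 4 arrays were kept. Probe accessions were named through RefSeq, which gave 28025 probes (71.1%) a gene. No spot was saturated. Groups came from the submitters' labels. A linear model over the 4 groups was fitted in limma 3.58.1 (R 4.3.3) and p-values were adjusted by Benjamini-Hochberg over these probes; the script was tested beforehand on simulated data. Exact two-sided permutation tests used scipy 1.17.1, with a smallest p of 0.0286 for 4 against 4 and 0.0159 for 4 against 5 mice. The number of arrays limits the precision.

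The 10 members, the 63 further pathway genes, the target and marker lists and the motifs were chosen with earlier results of these data known. Named in the text are all members, the 8 further pathway genes with the largest called difference in each comparison, up to 4 called genes of each target list, and Igfbp1, Pck1 and G6pc; some genes that this rule names are not reported here. Alternatives were the background correction, the scaling, the authors' value table, the filter, the variance model, the methods' t-test (named there for other measurements of the mice) after adjustment and at an unadjusted p of 0.015, the study's limit for its array gene lists, fits of 2 groups, slide and replicate blocks, the mean of a gene's probes, a 2-fold limit and each array left out. Equal replicate numbers did not mark pairs: deviations from group means of same-numbered mice correlated at -0.31 to 0.25 in the 3 comparisons.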

Additional observations from a re-analysis of the deposited data

Results flagged for a closer look

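Among the 40 sets of a member's levels in 1 group, 2 held a mouse far from the rest of its group, and chance alone gives such a mouse in about 1 of 20 sets. For Akt1 in HFD MTX50, mouse 5 was highest at 1.44 against 0.945 to 1.01 in the other 4, a gap of 0.871 of the group's range. For Foxo1 in LFD MTX50, mouse 4 was lowest at 0.826 against 1.28 to 1.44, a gap of 0.737 of the range.

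The methotrexate difference on HFD minus that on LFD, tested in limma, was called for 6 of the 10 members. It was 0.90 for Irs1, 0.81 for Grb14 and 0.59 for Akt2, and -0.71 for Irs2, -0.9999 for Foxo3 and -1.01 for Ptpn1. The share of all genes called in this test was 26.8%. Under a random slide block only Foxo3 of these 6 was called, beside 6.37% of all genes. Slide and group cannot be told apart for the LFD mice, and the part of the mix of cells in these values was not tested.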

How the results depend on the processing

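The counts set beside the alternatives here are 4, 1 and 4 members and 16, 13 and 16 further pathway genes called with diet, with the drug on HFD and with the drug on LFD, and 6 members for the difference between the drug effects. Every called member kept its sign in each alternative of the 3 comparisons. With default normexp background correction 0, 0, 0 and 0 members and 0, 0 and 1 further genes were called, and Phlpp2 with diet turned to 0.0854. That correction left array medians of -2.33 to -0.29, so its fit differed strongly between arrays, and 0.0102%, 0%, 1.73% and 0% of all genes were called. Normexp from negative controls, an alternative chosen after seeing the data, gave 0 members with the drug on HFD. Quantile normalization, which moved the median of all genes with the drug on LFD from 0.10 to 0.00, gave 10 further genes with diet. The authors' value table gave 0 members and 7 further genes with the drug on HFD. The methods' t-test after Benjamini-Hochberg adjustment gave 0 members and 0 further genes there, and 0% of all genes. At an unadjusted p of 0.015 it gave 8 further genes there (10.5% of all genes) and 7 members with the drug on LFD (28.9%). Fits of 2 groups alone gave 28 further genes with diet (41.7% of all genes), and 0 members and 0 further genes with the drug on HFD (0%). With the slide as a random block the members called were 0, 0, 1 and 1, with 0 further genes for diet and 1 for the drug on LFD, and as a fixed block 0 members and 0 further genes with the drug on HFD (0% of all genes). The replicate block gave 0 members and 6 further genes with the drug on HFD (5.17% of all genes), and 4 and 5 members with diet and with the drug on LFD. The mean of a gene's probes gave 6 further genes with the drug on HFD and turned Phlpp2 with diet to 0.10. Adding a 2-fold limit left 0, 0, 0 and 1 members and 1, 1 and 2 further genes. Leaving out 1 array at a time gave 2 to 5, 0 to 2 and 2 to 6 members, 2 to 7 for the difference, and 3 to 21, 2 to 13 and 12 to 19 further genes. The 2 members with diet came without HFD mouse 3 or 4, the 2 with the drug on LFD without LFD mice 1, 2 or 3 or LFD MTX50 mice 2 or 3.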
